A study of Equus caballus with 68 samples.

Results

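The genes described here are 33 genes of the B cell lineage, chosen by name from B cell precursors, mature B cells and plasma cells. A gene was taken as listed when its symbol stood in the gene table of the study. Of the 33 genes, 27 were listed among 30371 genes, and 24 of these reached the level needed for a test. CD79B, FCRL1, SPIB, DERL3, VPREB1 and IGLL1 were not listed by symbol and were not analysed here. Bone marrow mononuclear cells (BMNC) came from 8 adult Thoroughbred horses aged 3 to 9 years, and were separated on a density gradient. The cells of each horse were sequenced at 0 hours, uncultured (8 libraries), and again once they had been kept in that horse's own synovial fluid, freed of cells. SF was fluid from healthy joints, and ISF was fluid from radiocarpal joints inflamed with lipopolysaccharide, a bacterial product that sets off synovitis. Each fluid gave 7 libraries at 48 hours (Moon absent), 8 at 96 hours, 8 at 6 days and 7 at 10 days (Flash absent). There was 1 library per horse, fluid and time, so that both fluids held the same horses at each time. Groups at different times did not all share the same horses.

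B cells arise in bone marrow under the transcription factors EBF1 and PAX5, and carry an antigen receptor whose signalling chains include CD79A. Mature B cells are known by surface proteins such as CD20 (MS4A1), CD22 and the complement receptor CR2. Plasma cells are the antibody-secreting end of the lineage, and they switch on PRDM1, XBP1 and IRF4, keep the receptor TNFRSF17 and make the joining chain JCHAIN that links antibody units. Several of these genes are also used outside the lineage: the adaptor BLNK and the surface protein CD72 are known from macrophages as well, PRDM1, XBP1 and IRF4 from T cells and myeloid cells, and SDC1 (CD138) from epithelial and other cells.

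Levels are given as GeTMM, a read count divided by gene length and scaled to make libraries comparable, so that genes can be compared with each other. Differences are log2 fold changes of GeTMM + 1 from limma, and this scale understates the change of genes at low levels. A DEG is a gene with a Benjamini-Hochberg false discovery rate (FDR) under 0.05 over the 14570 genes tested. A library held 15.7 to 36.0 M reads on genes (median 22.3), and 1 read on a gene of 1 kilobase was worth 0.0337 to 0.0979 GeTMM. Some libraries stood apart. In a profile of 200 genes that tell the horses apart, 66 of 68 libraries matched their own horse best. The exceptions, both from ISF at 96 hours, were labelled Dealings and Dreamer, and each matched the other of the pair. The SF library of Moon at 6 days had a summed GeTMM of 2321940, against 817795 to 1458340 in the others, and it listed CR2, TNFRSF13C, TNFRSF17 and CXCR5 at 0. For the 24 tested genes, the counts called or lower in each horse between the fluids at 96 hours and 6 days are given with and without these libraries. Each of their calls between the fluids that changed when the libraries were left out is given too. For the other gene lists, and for the fit with the horse as a block, results are given with all libraries only.

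The first comparison asked whether the inflamed fluid changed B lineage transcripts. B lineage genes were called lower in ISF than in SF cultures, first PAX5, BACH2 and IRF4 at 96 hours, and most broadly at 6 and 10 days. The 96-hour calls were lost without Catnip or without Dreamer. The largest differences at 10 days were in CD79A, POU2AF1, CR2, MS4A1 and FCER2, each with a log2 fold change below -2.2. BLNK went the other way. Of 6 plasma cell genes, 4 were lower in ISF at 6 days and 0 were DEGs at 10 days. At 10 days limma voom on recovered reads called MZB1. The fit with the horse as a block called 4, of which XBP1 was higher in ISF. In bulk RNA, fewer B cells and less RNA per B cell cannot be told apart, here and in all results below.

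At 48 hours none of the 24 genes was a DEG between the fluids, where 1.68% of all tested genes were. BACH2 (lower) and CD72 (higher) had an unadjusted limma p under 0.05, and limma voom on the recovered reads and limma with the horse as a block also called 0. By 96 hours 3 of 24 were lower in ISF and 0 higher, against 4.3% and 6.16% of all genes. These were PAX5, BACH2 and IRF4. None of the 3 was called without Catnip or without Dreamer, whereas 11 were called, all lower, with the horse as a block, which adds POU2AF1, CD79A, BANK1, MS4A1, CD22, FCRLA, FCER2 and JCHAIN (FDR 0.0055 to 0.0366). The block takes the labels of Dealings and Dreamer as given, and was not fitted without their mismatched ISF libraries. In the fit with no term for horse, 3 were again lower and 0 higher with the mismatched pair left out. Leaving out the 6-day SF library of Moon added BANK1 (FDR 0.0338). At 6 days 18 of 24 were lower and 1 higher, against 13.6% and 16.7% of all genes. With Moon's SF library of that time left out there were 19 lower and 1 higher, with TNFRSF17 added. Culture for 10 days gave 13 lower and 1 higher, against 10.8% and 9.95%. The median log2 fold change over the 24 genes was -0.24, -0.49, -0.97 and -1.05 at 48 hours, 96 hours, 6 days and 10 days, where that over all tested genes was -0.016, -0.0027, 0 and -0.022. In the limma fit of all libraries with no term for horse, CD72, CXCR5, TNFRSF17, PRDM1 and SDC1 were not DEGs between the fluids at any time. With the horse as a block CXCR5 was called at 10 days and TNFRSF17 at 6 days.

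**Figure D1:**
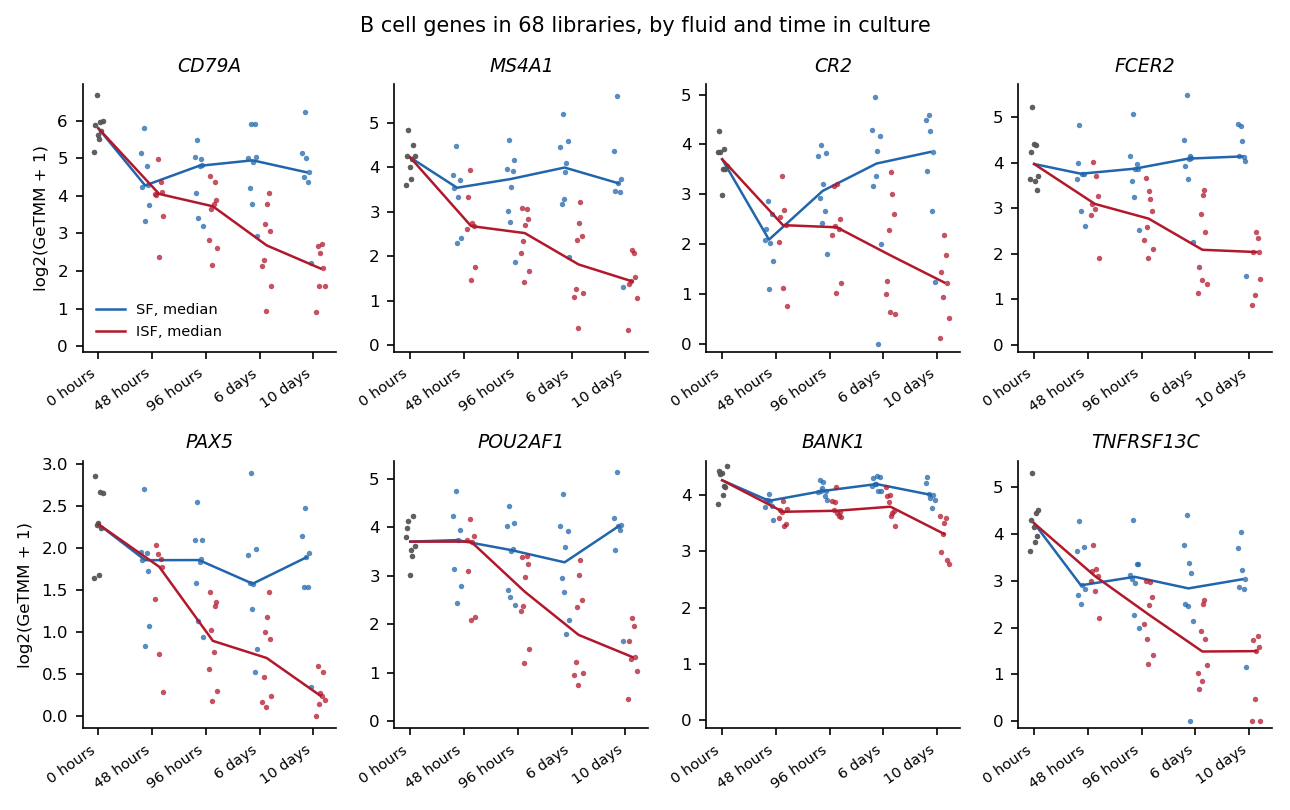
Levels of 8 B cell genes in log2(GeTMM + 1), before culture (0 hours, black) and in SF (blue) and ISF (red) cultures at 48 hours, 96 hours, 6 days and 10 days; points are libraries and lines join the group medians. The SF and ISF medians of CD79A, MS4A1, CR2 and FCER2 part with time, and at 10 days the median of CD79A was 23.7 GeTMM in SF and 3.19 GeTMM in ISF.

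Among the B cell transcription factors, all 4 tested were lower in ISF at 6 and at 10 days. PAX5, which holds cells in the B lineage, had levels of 0.271 (RimRun), 2.71 and 4.55 GeTMM (Dreamer) as lowest, median and highest in SF at 10 days. In ISF the same 3 values were 0 (Catnip), 0.179 and 0.512 GeTMM (Dealings), from 0 to 18 reads per library. Only RimRun in SF lay inside the range of the ISF cultures, and the log2 fold change was -1.41 (SE 0.30, FDR 0.000292). POU2AF1, a coactivator of octamer-binding factors at immunoglobulin genes, ranged from 2.14 (RimRun) over a median of 15.2 to 34.2 GeTMM (Dreamer) in SF. The ISF cultures held 0.373 (Catnip), 1.5 and 3.35 GeTMM (Lurie), again overlapping SF through RimRun. The difference was -2.38 (SE 0.44, FDR 4.52e-05).

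EBF1, which opens the B lineage programme, was low throughout, with 0.248 (RimRun), 0.829 and 2.87 GeTMM (Dreamer) in SF at 10 days. Its ISF values were 0 (Dreamer), 0.110 and 0.252 GeTMM (Lurie), a difference of -0.84 (SE 0.18, FDR 0.000293). Dreamer thus held the highest level in SF and the lowest in ISF. BACH2, a repressor that holds back plasma cell formation, had 0.444 (RimRun), 1.15 and 2.15 GeTMM (Catnip) in SF. In ISF it had 0.0191 (Lurie), 0.140 and 0.489 GeTMM (Moon), and the log2 fold change was -0.91 (SE 0.15, FDR 1.03e-05). The groups met only between Moon in ISF and RimRun in SF. At 96 hours, where BACH2 and PAX5 were first called, the log2 fold changes were -0.48 (FDR 0.0223) for BACH2 and -0.90 (FDR 0.0269) for PAX5. BACH2 was not called without each of Catnip, Dreamer, Flash and Lurie (FDR 0.0602 to 0.104), nor PAX5 without each of Catnip, Dreamer, Lurie and Ollie (FDR 0.0649 to 0.101). Without Catnip the 6-day calls of PAX5 (-0.87, FDR 0.0126) and POU2AF1 (-1.34, FDR 0.00991) were lost too (FDR 0.0632 and 0.0657).

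Of the genes around the B cell receptor, 3 of 4 were lower and 1 higher in ISF at 6 and 10 days. CD79A, the signalling chain of the receptor, had 34.7 (Catnip), 54.6 and 101 GeTMM (Dreamer) before culture. After 10 days in SF, CD79A was at 34.0 GeTMM in Catnip, 21.7 in Dealings, 74.3 in Dreamer, 30.9 in Lurie, 19.7 in Moon, 23.7 in Ollie and 3.64 in RimRun. The ISF cultures of the same horses, in that order, held 0.892, 5.29, 2.01, 4.58, 5.56, 3.19 and 2.03 GeTMM. Each horse was lower in ISF, Catnip and Dreamer by the most and RimRun by the least, and RimRun was the only SF culture inside the ISF range, while Dealings, Lurie and Moon in ISF were above RimRun in SF. The log2 fold change was -2.58 (SE 0.46, FDR 2.81e-05), after -2.07 (FDR 0.000169) at 6 days and -1.0 (FDR 0.134) at 96 hours.

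BLK, a kinase that passes on the receptor's signal, had 0.665 (RimRun), 2.31 and 7.96 GeTMM (Lurie) in SF and 0.113 (Catnip), 0.439 and 1.00 GeTMM (Lurie) in ISF at 10 days. Lurie was the highest horse in both fluids, and the difference was -1.39 (SE 0.32, FDR 0.000786). BANK1, a scaffold of B cell signalling, had the smallest SE of the 24 genes. Its SF levels at 10 days were 17.7 GeTMM in Catnip, 19.1 in Dealings, 15.2 in Dreamer, 14.5 in Lurie, 12.7 in Moon, 15.1 in Ollie and 14.1 in RimRun. In ISF the same horses had 11.3, 6.90, 8.93, 10.4, 11.1, 6.23 and 5.87 GeTMM. All ISF cultures were below all SF cultures, and the difference of -0.80 (SE 0.11) had the smallest FDR of the 24 genes at that time (4.15e-07).

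BLNK, the adaptor that links the receptor to its downstream enzymes, had 79.5 GeTMM in Catnip, 97.8 in Dealings, 92.3 in Dreamer, 81.5 in Lurie, 116 in Moon, 109 in Ollie and 99.6 in RimRun in SF at 10 days. The ISF cultures held 139, 217, 124, 198, 173, 151 and 188 GeTMM. Each ISF culture was above each SF culture, with a log2 fold change of 0.80 (SE 0.18, FDR 0.000653). BLNK was also higher in ISF at 6 days (0.93, SE 0.17, FDR 1.55e-05), but not past the test at 48 hours (0.27, FDR 0.517) or 96 hours (0.31, FDR 0.25).

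The surface proteins of mature B cells gave 5 of 7 genes lower in ISF at 6 days, and the same 5 at 10 days. MS4A1, which encodes CD20, had 19.6 GeTMM in Catnip, 10.1 in Dealings, 47.4 in Dreamer, 11.5 in Lurie, 9.94 in Moon, 12.4 in Ollie and 1.49 in RimRun in SF at 10 days. In ISF the values were 0.259, 1.57, 1.7, 3.41, 3.22, 1.9 and 1.08 GeTMM. RimRun differed little between the fluids, while Catnip and Dreamer had the widest gaps, and the log2 fold change was -2.24 (SE 0.45, FDR 0.000146). CR2, the receptor for complement fragments, had 1.39 (RimRun), 13.4 and 23.1 GeTMM (Dreamer) in SF and 0.0861 (Catnip), 1.36 and 3.57 GeTMM (Lurie) in ISF. RimRun was again the SF culture inside the ISF range, with a difference of -2.34 (SE 0.50, FDR 0.000376). At 6 days CR2 was lower by a log2 fold change of -1.37 (FDR 0.0205), a call lost without each of Catnip, Dealings, Dreamer, Flash and Ollie (FDR 0.0542 to 0.108) and by voom on reads (FDR 0.173).

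FCER2 (CD23), the low-affinity receptor for IgE, had 1.86 (RimRun), 16.6 and 27.8 GeTMM (Catnip) in SF at 10 days. In ISF it had 0.828 (Catnip), 3.11 and 4.62 GeTMM (Lurie), so that Catnip went from the highest level in SF to the lowest in ISF. The log2 fold change was -2.23 (SE 0.41, FDR 4.46e-05). CD22, which dampens receptor signalling, had 0.514 (RimRun), 2.61 and 6.98 GeTMM (Dreamer) in SF and 0.0909 (Catnip), 0.460 and 0.949 GeTMM (Lurie) in ISF (-1.40, SE 0.28, FDR 0.00016). FCRLA, an intracellular Fc receptor-like protein of B cells, had 0.859 (RimRun), 7.62 and 15.3 GeTMM (Catnip) in SF. Its ISF levels reached from 0.639 (Dealings) over 1.72 to 6.13 GeTMM (Moon), and the log2 fold change was -1.40 (SE 0.35, FDR 0.00216). The ISF culture of Moon lay well inside the SF range for this gene.

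CXCR5, the chemokine receptor that guides B cells to follicles, had a median of 0.345 GeTMM in SF at 10 days and was listed at 0 in 5 of 7 ISF libraries, with 5 reads in all. Its difference of -0.37 (SE 0.15) did not pass the test (FDR 0.0616), but passed with the horse as a block (FDR 0.0287) and in the fit without the 6-day SF library of Moon, which enters the spread shared by all groups (FDR 0.0458). CD72 did not either: it had 17.5 (Catnip), 29.6 and 46.4 GeTMM (Dealings) in SF and 20.3 (Catnip), 49.1 and 67.4 GeTMM (Dreamer) in ISF, a difference of 0.46 (SE 0.33, FDR 0.359). The ranges overlapped over most of their width.

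**Figure D2:**
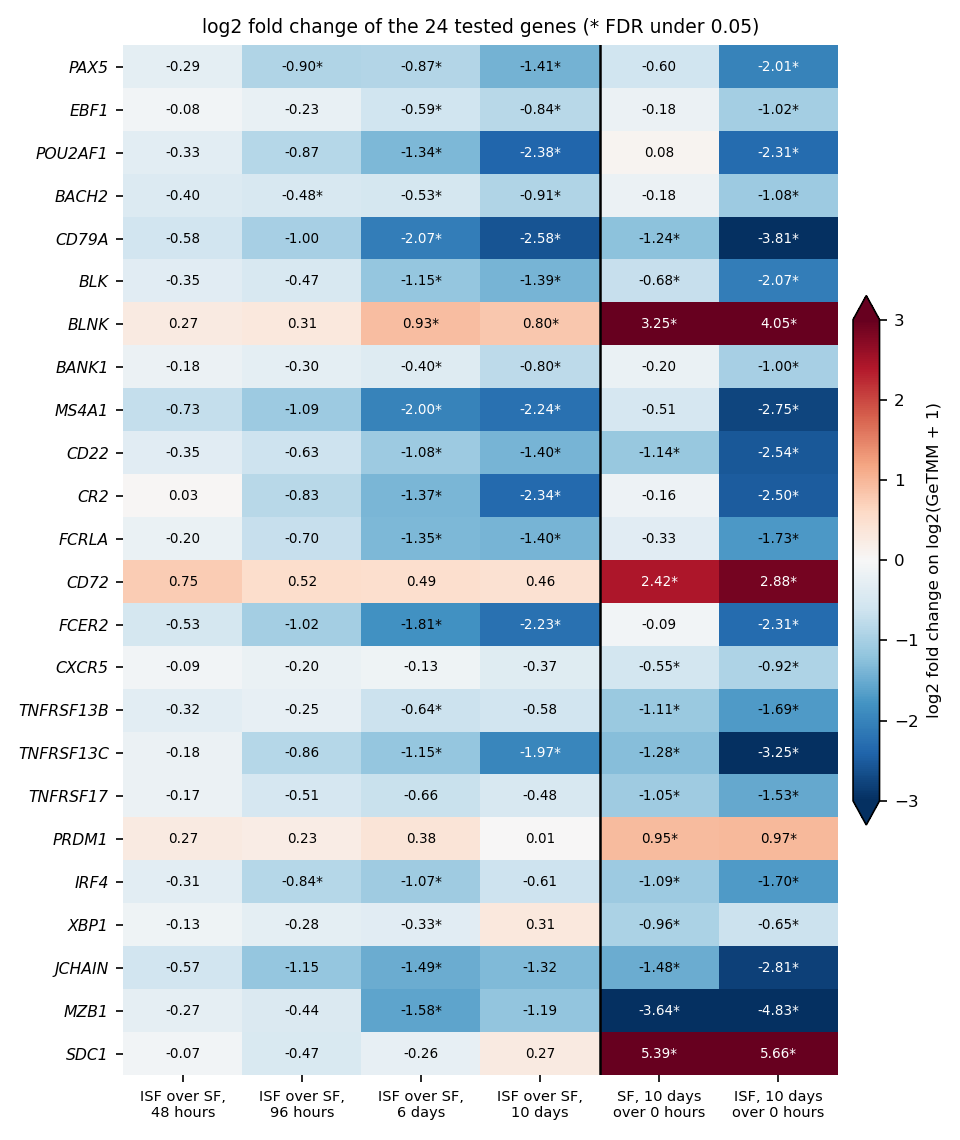
Log2 fold changes of the 24 tested genes, grouped by role, for ISF over SF at 48 hours, 96 hours, 6 days and 10 days and for SF and ISF at 10 days over 0 hours; blue is lower, red is higher, the colour scale ends at 3 in each direction, and an asterisk marks FDR under 0.05 (limma). Between the fluids 18 genes were lower at 6 days and 13 at 10 days, and BLNK was the 1 gene that was higher.

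Of the receptors for the survival factors BAFF and APRIL, TNFRSF13C (the BAFF receptor) and TNFRSF13B (TACI) were lower in ISF at 6 days, and TNFRSF13C alone at 10 days. TNFRSF13C had 1.23 (RimRun), 7.17 and 15.6 GeTMM (Dreamer) in SF at 10 days and 0 (in 2 libraries), 1.82 and 2.55 GeTMM (Moon) in ISF. RimRun in SF lay within the ISF range and all other SF cultures above it, with a log2 fold change of -1.97 (SE 0.42, FDR 0.000353). At 6 days the difference of -1.15 (FDR 0.0196) was not called without each of Catnip, Dealings, Dreamer and Ollie (FDR 0.0579 to 0.1). TNFRSF13B was at 0.134 (RimRun), 0.526 and 1.73 GeTMM (Dreamer) in SF at 10 days and at 0 (Catnip), 0.177 and 0.336 GeTMM (Dealings) in ISF, a difference of -0.58 (SE 0.22, FDR 0.0504, 0.00628 with the horse as a block and 0.0407 without the 6-day SF library of Moon), after -0.64 (FDR 0.0137) at 6 days. TNFRSF17 (BCMA), the receptor kept by plasma cells, had 0.574 (Moon), 1.58 and 3.82 GeTMM (Dreamer) in SF at 10 days and 0.390 (Catnip), 0.897 and 1.48 GeTMM (Ollie) in ISF, and was not called (-0.48, SE 0.30, FDR 0.264). At 6 days its difference of -0.66 had an FDR of 0.0598, and of 0.0296 with the horse as a block, and without the SF library of Moon it was -0.87 (FDR 0.00912).

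Of the 6 plasma cell genes tested, IRF4, XBP1, JCHAIN and MZB1 were lower in ISF at 6 days, and limma called 0 of the 6 at 10 days. At that time IRF4, JCHAIN, MZB1 and XBP1 had an unadjusted p under 0.05, voom on reads called MZB1, and the fit with the horse as a block called all 4, the first 3 lower in ISF and XBP1 higher. JCHAIN was the most abundant of the 27 genes before culture, with 339 (RimRun), 648 and 3771 GeTMM (Ollie). At 6 days it had 128 (Moon), 458 and 1252 GeTMM (Dreamer) in SF and 69.8 (Dealings), 140 and 254 GeTMM (Lurie) in ISF, with a log2 fold change of -1.49 (SE 0.51, FDR 0.0207). The ranges overlapped, and the FDR was 0.0687 without Catnip and 0.0587 without Flash. By 10 days the difference was -1.32 (SE 0.55, FDR 0.0755 and 0.00677 with the horse as a block), with 120 (Dealings), 252 and 1017 GeTMM (Dreamer) in SF and 54.1 (Catnip), 123 and 166 GeTMM (Lurie) in ISF.

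MZB1, a chaperone of the endoplasmic reticulum that helps antibody secretion, fell to a few reads per library. In ISF at 6 days it had 0 (RimRun), 0.361 and 0.964 GeTMM (Lurie), against 0.302 (Dealings), 2.44 and 11.8 GeTMM (Dreamer) in SF, a difference of -1.58 (SE 0.51, FDR 0.0146). The FDR was 0.052 without Dreamer and 0.0535 without Ollie. At 10 days the ISF libraries held 0 to 3 reads each and 8 in all, and the SF libraries 3 to 96. Each of the 7 ISF values lay below each SF value, yet the difference of -1.19 (SE 0.55) was not called (FDR 0.115 and 0.0149 with the horse as a block).

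IRF4, needed by plasma cells and by activated lymphocytes, had 2.31 (Lurie), 2.7 and 6.42 GeTMM (Dreamer) in SF at 96 hours and 0.560 (Flash), 1.61 and 2.46 GeTMM (Dealings) in ISF. Its log2 fold change was -0.84 (SE 0.24, FDR 0.0161) at that time, -1.07 (SE 0.24, FDR 0.00051) at 6 days and -0.61 (SE 0.26, FDR 0.0854 and 0.0317 with the horse as a block) at 10 days. The 96-hour call was lost without Catnip, Dreamer or Flash (FDR 0.0546 to 0.0565). XBP1, which widens the secretory pathway, had 37.6 (RimRun), 51.5 and 62.7 GeTMM (Flash) in SF and 33.3 (Dealings), 37.0 and 54.1 GeTMM (Catnip) in ISF at 6 days, a difference of -0.33 (SE 0.13, FDR 0.0438). This was the call with the highest FDR at that time, and it was lost without each of Dealings, Dreamer, Flash, Lurie and Ollie (FDR 0.0582 to 0.127). At 10 days XBP1 had medians of 38.2 GeTMM in SF and 51.3 GeTMM in ISF, with a fold change of the other sign that was not called (0.31, SE 0.14, FDR 0.111 and 0.043 with the horse as a block).

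PRDM1 and SDC1 did not pass the test between the fluids. PRDM1, the repressor that ends the B cell programme, had 7.55 (Dreamer), 10.3 and 25.7 GeTMM (Ollie) in SF at 10 days and 5.41 (Dreamer), 11.1 and 31.3 GeTMM (Ollie) in ISF (0.01, SE 0.21, FDR 0.981). Dreamer was lowest and Ollie highest in both fluids. SDC1, a heparan sulfate proteoglycan, had 292 (Lurie), 587 and 903 GeTMM (Ollie) in SF and 324 (Catnip), 797 and 1137 GeTMM (Dealings) in ISF, a difference of 0.27 (SE 0.28, FDR 0.561).

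**Figure D3:**
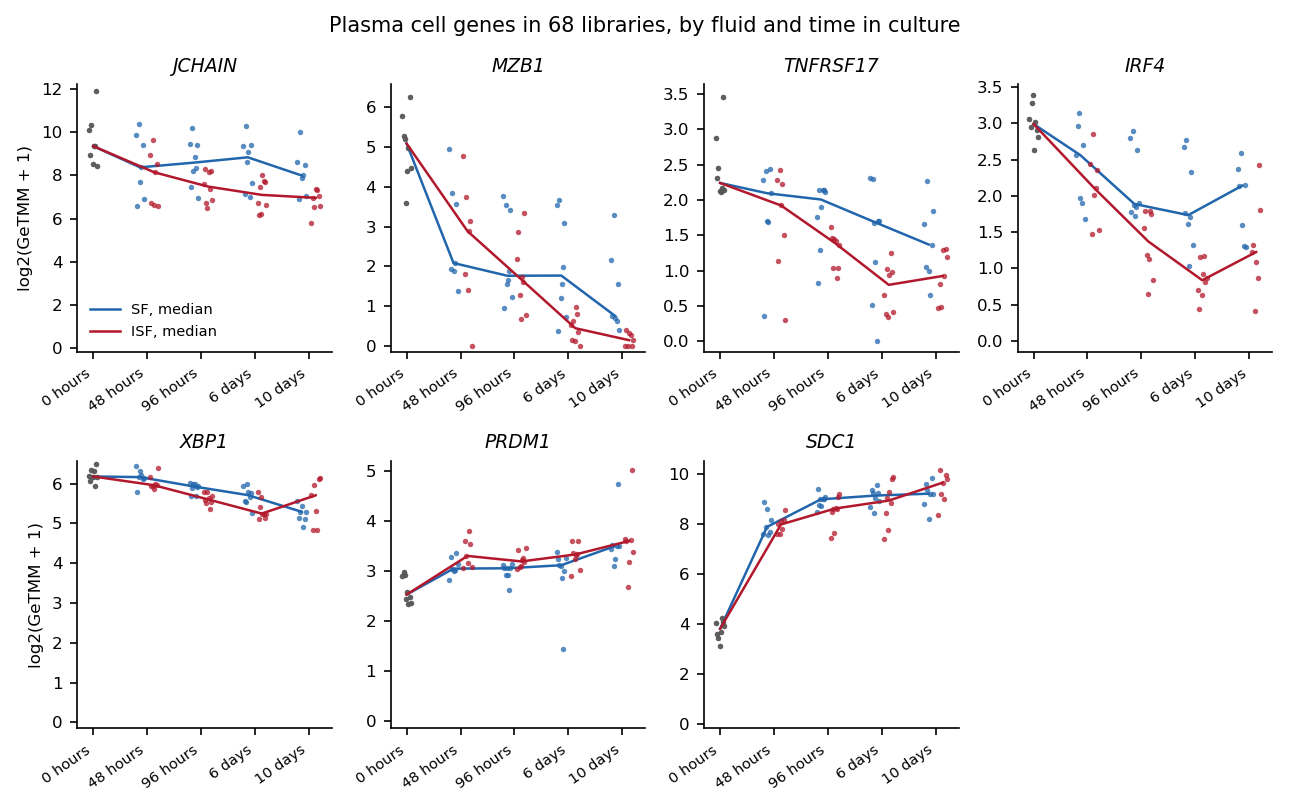
Levels of 7 plasma cell genes in log2(GeTMM + 1), before culture (black) and in SF (blue) and ISF (red) cultures by time; points are libraries and lines join the group medians. JCHAIN and MZB1 fell from 0 hours, SDC1 rose from a median of 13.1 GeTMM to 587 GeTMM in SF and 797 GeTMM in ISF at 10 days, and the XBP1 medians crossed between 6 and 10 days.

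Because cells of the same horse entered both fluids, each gene was also compared within horses by an exact permutation test that reverses the ISF minus SF difference horse by horse (two-sided, p given unadjusted). The smallest p this test can give is 0.0156 with 7 horses and 0.00781 with 8. At 48 hours POU2AF1, CD79A, MS4A1 and CD22 were lower in ISF in 7 of 7 horses and BLNK was higher in 7 of 7, each with an exact permutation p of 0.0156. Adjusted over all 14570 genes tested, that p is 0.126, and limma with the horse as a block called 0 of the 24 genes at 48 hours. Over all tested genes, 6.61% were lower and 5.78% higher in each horse at that time. The mean within-horse log2 difference of MS4A1 was -0.73 (SD 0.34, n = 7) and that of CD79A -0.58 (SD 0.38, n = 7).

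At 6 days 11 of 24 genes were lower in ISF in 8 of 8 horses, against 6.16% of all genes, and BLNK was higher in 8 of 8, against 8.72%. Without the SF library of Moon 18 of 24 were lower in 7 of 7 horses, against 14.6%; the genes added were PAX5, POU2AF1, BACH2, CR2, TNFRSF13C, TNFRSF17 and JCHAIN. Genes lower in 7 of 7 horses at 10 days numbered 15 of 24, against 10.6% of all genes. They were PAX5, EBF1, POU2AF1, BACH2, CD79A, BLK, BANK1, MS4A1, CD22, CR2, FCER2, CXCR5, TNFRSF13B, TNFRSF13C and MZB1. BLNK was higher in 7 of 7, against 9.52%. Without any overlap between the fluids across horses were BANK1 and MZB1 (lower, against 2.69% of all genes) and BLNK (higher, against 2.26%). At 96 hours PAX5, TNFRSF13C and XBP1 were lower in 8 of 8 horses, against 7.07% of all genes. That count takes the labels of Dealings and Dreamer as given. Without their ISF libraries 12 of 24 genes were lower in 6 of 6 horses, against 9.94% of all genes. With these 2 libraries exchanged 12 were lower in 8 of 8, against 8.68%. Adjusted over all genes tested, the permutation p at 96 hours was under 0.05 for 3 of 24 genes and for 2298 of 14570, with labels as given. At 6 and 10 days it was under 0.05 for 0 genes of all tested, with a smallest adjusted p of 0.0525 and 0.0776.

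**Figure D4:**
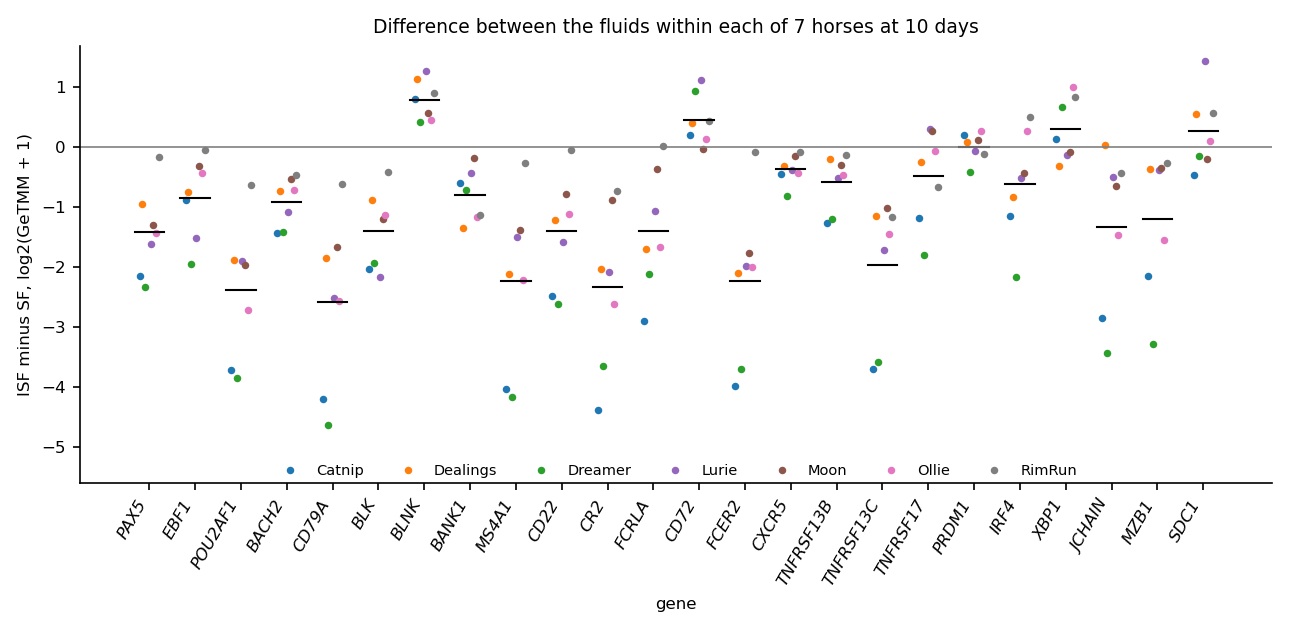
ISF minus SF, in log2(GeTMM + 1), for each of 7 horses at 10 days (coloured points) for the 24 tested genes, with the mean as a black line; values below 0 are lower in ISF. For 15 genes all 7 horses lie below 0, and RimRun lies closest to 0 for CD79A and MS4A1.

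Among the horses, Dreamer had the highest level of 15, 16, 15 and 14 of the 24 genes in SF at 48 hours, 96 hours, 6 days and 10 days. The horse with the lowest level of the most genes was Flash at 48 hours (9 genes, RimRun 7), RimRun at 96 hours (14 genes), Moon at 6 days (10 genes, RimRun 9) and RimRun at 10 days (16 genes). The summed level of the B lineage markers CD79A, MS4A1, PAX5 and CD22 was 52.7 (Catnip), 86.8 and 147 GeTMM (Dreamer) before culture. In SF at 10 days it was 5.91 (RimRun), 41.6 and 133 GeTMM (Dreamer), and in ISF 1.24 (Catnip), 6.19 and 9.63 GeTMM (Moon). RimRun in SF was the only SF culture inside the ISF range of this sum. IGHM and IGHD were not listed by symbol and not analysed here.

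Whether the difference between the fluids changed over time was tested with an interaction term. From 48 hours to 10 days it grew in BANK1 (-0.61, SE 0.16, FDR 0.0222) and CR2 (-2.37, SE 0.71, FDR 0.0477), 2 of 24 genes against 1.41% of all genes in that direction and 1.59% in the other. CR2 had medians of 3.27 GeTMM in SF and 4.22 GeTMM in ISF at 48 hours, and 13.4 and 1.36 GeTMM at 10 days. Neither gene was called without Dealings, without Dreamer or without Ollie (FDR 0.08 to 0.176), and with the horse as a block 12 genes were called. The 10 that the block added were PAX5, EBF1, POU2AF1, CD79A, BLK, MS4A1, CD22, FCRLA, FCER2 and TNFRSF13C (FDR 0.00155 to 0.0324). Without the 6-day SF library of Moon CD79A, POU2AF1 and TNFRSF13C were called too (FDR 0.0285 to 0.048), and without the 96-hour ISF libraries of Dealings and Dreamer CR2 was not (FDR 0.0519). Between consecutive times limma called 0 of 24 genes for each of the 3 intervals, where 0.0206%, 0% and 0.226% of all genes were called. Unadjusted p under 0.05 was reached by 0, 1 (BLNK) and 2 genes (BANK1 and XBP1), limma voom called 0 for each interval, and the horse block called 0, 0 and 1 (XBP1, 0.64, FDR 0.0291).

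The second comparison followed each fluid over time. From 0 hours to 10 days all 24 genes changed in ISF, 20 lower and 4 higher, where 38.4% and 36.1% of all genes did. In SF 11 were lower and 4 higher, against 34.9% and 34.7%. The median log2 fold change over the 24 genes was -1.72 in ISF and -0.53 in SF, where that over all tested genes was -0.034 and -0.0096. Both comparisons share the same 0-hour libraries. The genes lower in both fluids were CD79A, BLK, CD22, CXCR5, TNFRSF13B, TNFRSF13C, TNFRSF17, IRF4, XBP1, JCHAIN and MZB1. Another 9, among them MS4A1, CR2, FCER2, PAX5 and POU2AF1, were lower in ISF and not called in SF. Of these, PAX5 was called in SF with the horse as a block (-0.60, FDR 0.0596 and 0.00636 with the block).

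Among the genes lower in both fluids, MZB1 fell the most, from 11 (Flash), 33.1 and 75.8 GeTMM (Ollie) at 0 hours to a median of 0.682 GeTMM in SF and 0.102 GeTMM in ISF. Its log2 fold changes were -3.64 (SE 0.53, FDR 1.51e-08) in SF and -4.83 (SE 0.53, FDR 2.41e-12) in ISF. CD79A changed by -1.24 (SE 0.45, FDR 0.0125) in SF and by -3.81 (SE 0.45, FDR 2.41e-11) in ISF. The SF call of CD79A was lost without RimRun (FDR 0.0892), that of JCHAIN (-1.48, FDR 0.0112) without Ollie (FDR 0.0541), and that of BLK (-0.68, FDR 0.0421) without each of Dealings, Flash, Moon, Ollie and RimRun (FDR 0.0622 to 0.205). JCHAIN changed in ISF by -2.81 (SE 0.53, FDR 3.7e-06).

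Several genes that were not called in SF had medians at 10 days close to those before culture. POU2AF1 had a median of 12.1 GeTMM at 0 hours and 15.2 GeTMM in SF at 10 days (log2 fold change 0.08, SE 0.43, FDR 0.884). CR2 had 12.1 and 13.4 GeTMM (-0.16, SE 0.48, FDR 0.777), and FCER2 15.0 and 16.6 GeTMM (-0.09, SE 0.40, FDR 0.859). The SE was 0.40 to 0.48, and a change had to be well above its SE to be called. Changes larger than these SEs, in either direction, could thus have been missed. In ISF the same 3 genes changed by -2.31, -2.50 and -2.31 (FDR 2.55e-06, 6.24e-06 and 6.09e-07).

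More genes passed the test from 0 to 48 hours than in any later interval of either fluid. In ISF 18 genes were lower and 3 higher at 48 than at 0 hours, against 27.4% and 25.3% of all genes, and in SF 11 were lower and 2 higher, against 23.1% and 22.3%. CD22 fell by 1.71 on the log2 scale in ISF and by 1.36 in SF, MZB1 by 2.46 and by 2.19. With the horse as a block PAX5, MS4A1, FCRLA, CD72, TNFRSF17 and JCHAIN were also lower in SF at 48 hours (FDR 0.00632 to 0.0373). Between later times few genes passed the test. In ISF BLNK and CD72 rose and IRF4 and XBP1 fell from 48 to 96 hours (8.54% of all genes higher, 10.4% lower), BLNK rose from 96 hours to 6 days (2.83% higher, 3.54% lower), and from 6 to 10 days BLNK and CD72 rose and BANK1 fell (5.09% and 5.44%). SF cultures showed higher BLNK, CD72 and SDC1 from 48 to 96 hours (11.5% higher, 15.8% lower), and higher BLNK and CD72 and lower XBP1 from 6 to 10 days (3.19% and 1.59%). From 96 hours to 6 days in SF limma called 0 of 24, where 2.05% of all genes were called; BLNK and CD72 had an unadjusted p under 0.05, and voom and the horse block called 0. The 3 calls from 6 to 10 days in SF fell to 1 when the 6-day SF library of Moon was left out, with CD72 (FDR 0.0803) and XBP1 (FDR 0.0771) lost. XBP1 was also lost without each of Catnip, Dealings, Dreamer, Flash, Lurie, Moon and Ollie (FDR 0.0501 to 0.141). Voom on reads (FDR 0.0532) and leaving out the mismatched pair from ISF (FDR 0.0508) lost it too. CD72 was lost without each of Dealings, Flash, Lurie, Moon and Ollie (FDR 0.0569 to 0.126). The fall of XBP1 in ISF from 48 to 96 hours was not called when the mismatched pair from ISF was left out (FDR 0.0579). The horse block added MZB1 and CD79A (lower) in ISF from 96 hours to 6 days, BANK1 and CR2 (higher) in SF from 48 to 96 hours, and PRDM1 (higher) in SF from 6 to 10 days (FDR 0.00734 to 0.047).

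The 4 genes that rose over the 10 days in both fluids were BLNK, CD72, PRDM1 and SDC1. SDC1 was at 7.78 (Flash), 13.1 and 18.0 GeTMM (Moon) before culture and already at 185 (Lurie), 234 and 465 GeTMM (Dealings) in SF and 191 (Catnip), 250 and 378 GeTMM (RimRun) in ISF at 48 hours. No cultured library came near the 0-hour range, and the change to 10 days was 5.39 (SE 0.27, FDR 3.07e-26) in SF and 5.66 (SE 0.27, FDR 1.83e-27) in ISF. BLNK rose from 6.72 (Lurie), 9.58 and 12.1 GeTMM (Dreamer) at 0 hours to medians of 97.8 GeTMM in SF and 173 GeTMM in ISF, by 3.25 (SE 0.17, FDR 2.36e-25) and 4.05 (SE 0.17, FDR 3.73e-30). CD72 had 2.66 (Lurie), 5.45 and 7.00 GeTMM (RimRun) before culture, and its change of 2.42 (SE 0.32, FDR 1.56e-09) in SF and 2.88 (SE 0.32, FDR 5.54e-12) in ISF came after 48 hours, when it stood at medians of 2.46 and 5.23 GeTMM. PRDM1 went from 4.03 (Moon), 4.75 and 6.85 GeTMM (Dealings) to medians of 10.3 and 11.1 GeTMM, a change of 0.95 (SE 0.21, FDR 4.64e-05) in SF and 0.97 (SE 0.21, FDR 3.16e-05) in ISF.

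The markers of other cells moved beside these genes. All 7 macrophage markers (CD68, CD163, MRC1, GPNMB, MSR1, TREM2 and SPP1) were higher at 10 days than at 0 hours in both fluids, and their summed level was 184 to 307 GeTMM at 0 hours, 29897 to 75174 GeTMM in SF and 47200 to 82485 GeTMM in ISF. Between the fluids at 10 days 1 of the 7, MSR1, was called, and it was higher in ISF. All 5 T cell markers (CD3D, CD3E, CD3G, CD2 and LCK) were lower in ISF than in SF at 6 days and at 10 days, with sums of 23.5 to 199 GeTMM in SF and 4.33 to 14.8 GeTMM in ISF at 10 days, and RimRun was lowest in both. All 5 stromal markers (COL1A1, COL1A2, COL3A1, DCN and LUM) were lower in ISF at 10 days, with sums of 0.406 (Moon) to 4038 GeTMM (Lurie) in SF and 0.123 to 49.2 GeTMM in ISF. Of 7 plasmacytoid dendritic cell markers 3 were listed, and TCF4 and PACSIN1 were lower in ISF at 10 days. Of 5 conventional dendritic cell markers 1, FLT3, was lower, as were 3 of 5 neutrophil precursor markers. Over all tested genes, 36.1% in ISF and 34.7% in SF were higher at 10 days than at 0 hours. Between the fluids 13.6% of all genes were lower in ISF at 6 days, and 10.8% were lower and 9.95% higher at 10 days. None of the listed macrophage, T cell or stromal markers was at 0 in all libraries of a group. The part of these cells in the levels of BLNK, CD72, SDC1, PRDM1, XBP1 and IRF4 was not tested.

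**Figure D5:**
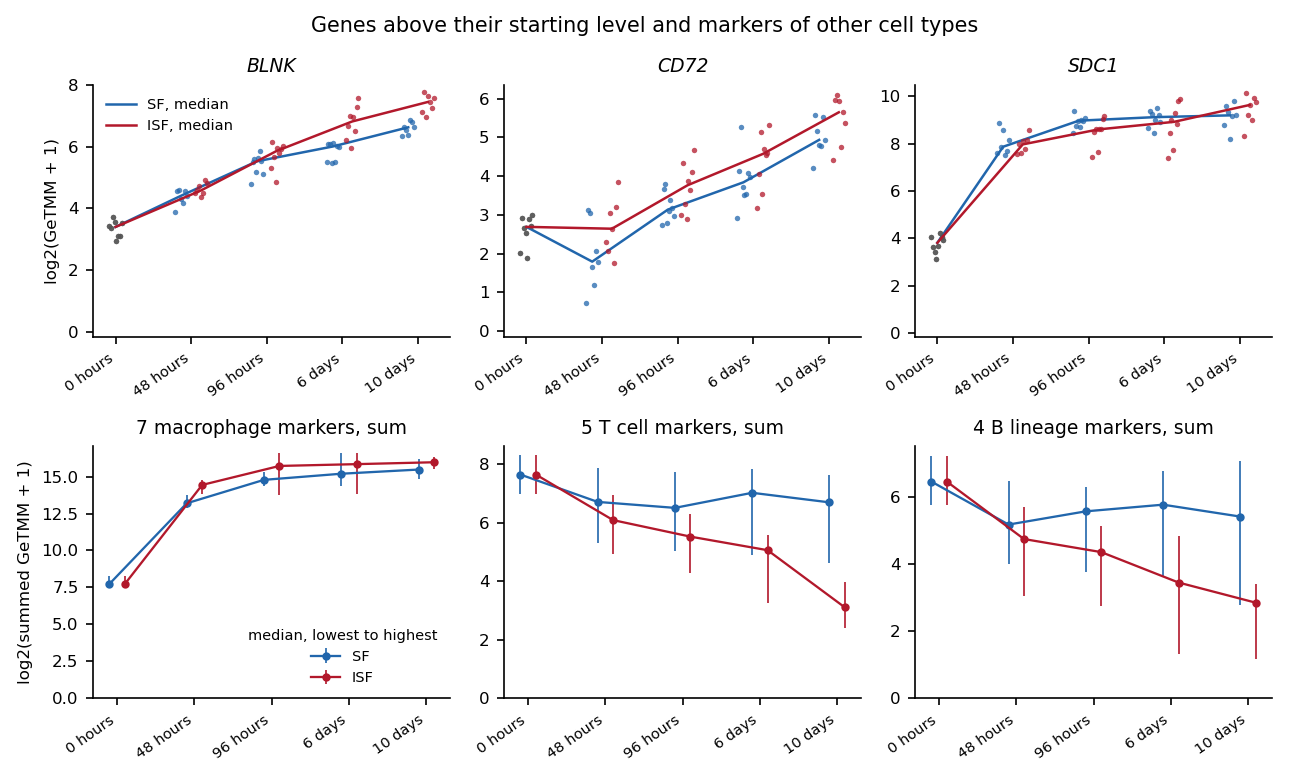
Top row, BLNK, CD72 and SDC1 in log2(GeTMM + 1) by time, with points for libraries (0 hours in black) and lines for the medians in SF (blue) and ISF (red). Bottom row, the summed GeTMM of 7 macrophage, 5 T cell and 4 B lineage markers as log2(sum + 1), shown as the median with bars from the lowest to the highest library. The macrophage sum rose from a median of 212 GeTMM at 0 hours to 45561 GeTMM in SF and 64174 GeTMM in ISF at 10 days, while the T cell sum at 10 days was 103 GeTMM in SF and 7.61 GeTMM in ISF.

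The genes of B cell precursors were near the limit of detection. RAG1 and RAG2, which cut the antigen receptor genes, held 18 and 5 reads over all 8 libraries at 0 hours, with at most 8 and 4 in a library. DNTT, which adds bases at the joints, had 5 to 19 reads per library at 0 hours (median 0.299 GeTMM), and its medians in culture were between 0.053 and 0.0952 GeTMM. At 10 days DNTT had 19 reads over the 7 SF libraries and 21 over the 7 ISF libraries. None of the 3 reached the level needed for a test, and a difference between the fluids was not detectable at this depth.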

How the data were processed

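Trimmed reads were mapped by the authors with STAR 2.7.2a to the horse assembly EquCab 3.0, and its gene counts were taken. The deposited table holds GeTMM values, an RPKM-like unit that the authors made with edgeR: counts corrected for gene length, with TMM factors to scale the libraries, not in logarithms. All 68 columns were mapped to a horse, fluid and time by their labels. The B cell genes and the other gene lists were chosen with earlier results of these data known.

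Values were tested as log2(GeTMM + 1) with the limma package (version 3.58.1, R version 4.3.3, functions lmFit and eBayes with trend), for genes that reached 0.5 GeTMM in 7 or more libraries. A single model held the 9 groups and no term for horse, and tests were two-sided, with the Benjamini-Hochberg adjustment over 14570 genes. The authors tested counts; GeTMM values are not counts, so limma was used. The horses are the replicates, and the samples are paired by horse between the fluids at each time. Moon and Flash were not in all groups, so that comparisons between times were not all fully paired. Of 68 libraries, 66 matched their own horse best over 200 genes. For the other 2 the correlation with the other horse was 0.947 and 0.911. A fit with the horse as a block was an alternative. Others were a pseudocount of 0.1, no filter on low values, a fit of only the groups compared, library weights, recentring of libraries, leaving out each horse, leaving out libraries that stood apart, and limma voom on whole reads. Leaving out or exchanging such libraries in the comparison within horses was chosen after seeing the data.

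Whole reads were recovered from the steps between values, for 24064 of 24065 genes above 0 (99.9958%, within 0.02 reads for counts up to 20000). By voom on these reads, 1418 genes were higher and 1501 lower in ISF at 10 days, against 1449 and 1578 by limma on GeTMM. The steps were tested on simulated data. Reads were not counted by molecular identifiers, so they include copies made by PCR and are not independent molecules. Depth was 15.7 to 36.0 M reads on genes per library.

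Values in full are given for genes called between the fluids at any time, for the 2 genes of each role with the highest mean level at 0 hours, and for genes higher at 10 days than at 0 hours. Of the other lists, up to 3 called genes with the largest change between the fluids are named, and TNFSF13B and CXCL13. The values of 1 other gene are not reported here, and it was left out of the lists and sums. Other genes in the text were named after their values were seen. No sequences or coordinates are given, since no genome of the build was used here. Python 3.11.15, numpy 2.4.6, pandas 2.3.3, scipy 1.17.1 and matplotlib 3.10.9 were used for the rest.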

Additional observations from a re-analysis of the deposited data

Results flagged for a closer look

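Checked were 216 groups of values, each gene in each group of 7 or 8 libraries. In 9 of these, a library's gap to the nearest of the others passed Dixon's limit, taken on log2(GeTMM + 1). Chance gives 1 in 20, or 10.8. On that scale JCHAIN in Ollie at 0 hours (3771 GeTMM, others 339 to 1271) was not among the 9. BACH2 was at 0.489 GeTMM in the ISF culture of Moon at 10 days, where the other horses had 0.0191 to 0.170. CXCR5 was at 0.196 GeTMM in the ISF culture of Dealings at 10 days, against 0 to 0.0450 in the others. In the SF culture of RimRun at 10 days FCER2 was at 1.86 GeTMM (others 15.4 to 27.8) and TNFRSF13C at 1.23 GeTMM (others 6.13 to 15.6). TNFRSF17 was at 0.284 GeTMM in the SF culture of Dealings at 48 hours, against 2.22 to 4.41. PRDM1 accounted for the other 4 values. It was low in the SF cultures of Moon at 96 hours (5.13 GeTMM, others 6.49 to 7.74) and at 6 days (1.72 GeTMM, others 6.20 to 9.37), and high in Ollie at 10 days in SF (25.7 GeTMM, others 7.55 to 10.4) and in ISF (31.3 GeTMM, others 5.41 to 11.3).

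The difference between the fluids changed from 48 hours to 10 days in BANK1 (-0.61 on the log2 scale, SE 0.16, limma FDR 0.0222) and in CR2 (-2.37, SE 0.71, limma FDR 0.0477), by the interaction term. Neither call held without Dealings, without Dreamer or without Ollie.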

How the results depend on the processing

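Of 125 calls of single genes, each recomputed under 17 alternatives, 1979 of 2125 values kept their direction and their call, 146 kept the direction and lost the call, and 0 changed direction. In 93 of the 125 the call held in every alternative. Counts that moved by over 1.5 times were as follows, where the cause was not tested. With the horse as a block (paired fit), 11 genes were called between the fluids at 96 hours in place of 3, 3 in place of 1 in ISF from 96 hours to 6 days, 5 in place of 3 in SF from 48 to 96 hours, 12 in place of 2 for the change of the difference from 48 hours to 10 days, and 1 in place of 0 for that from 6 to 10 days. The block changed no call other than those given with the results. Library weights gave 12 at 96 hours, 8 in place of 4 in ISF from 48 to 96 hours, 2 in ISF from 96 hours to 6 days, 6 in SF from 48 to 96 hours, and 9 for the change of the difference from 48 hours to 10 days and 1 for that from 6 to 10 days. A fit of only the groups compared gave 7 at 96 hours, 3 in ISF from 96 hours to 6 days, 1 in place of 3 in ISF from 6 to 10 days, 6 in SF from 48 to 96 hours, 0 in place of 3 in SF from 6 to 10 days and 1 for the change from 48 hours to 10 days. A pseudocount of 0.1 gave 2 in ISF from 96 hours to 6 days, and no filter gave 1 for the change from 48 hours to 10 days. With the 6-day SF library of Moon left out that change had 5 genes and SF from 6 to 10 days 1, and with the 96-hour ISF libraries of Dealings and of Dreamer left out the change had 1. Leaving out each horse in turn gave 0 to 5 genes at 96 hours (0 without Catnip or Dreamer), 14 to 20 at 6 days, 14 to 17 at 10 days, 2 to 6 in ISF from 48 to 96 hours (2 without Dreamer or Lurie), 1 to 3 in ISF from 6 to 10 days (1 without Dealings), 1 to 3 in SF from 6 to 10 days (1 without each of Dealings, Flash, Lurie, Moon and Ollie), 0 to 7 for the change from 48 hours to 10 days (0 without Dealings, Dreamer or Ollie) and 0 to 1 for that from 6 to 10 days (1 without Moon). By voom on reads 0, 4, 16 and 16 genes were lower in ISF at the 4 times. Values under 1 GeTMM rest on few reads, which limits the precision of genes at that level.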

Other observations

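Other genes of the B lineage came from a list of 27, with 19 tested. Of these, 6 were higher and 7 lower in ISF at 6 days, and 0 higher and 9 lower at 10 days (limma, FDR under 0.05). All 6-day results of this section include the SF library of Moon, which stood apart, and are not given without it. Over all genes 16.7% and 13.6% were higher and lower at 6 days, and 9.95% and 10.8% at 10 days. Genes with a higher median in ISF at 6 days included CD40 (16.8 GeTMM in SF and 31.0 GeTMM in ISF) and LYN (88.6 and 154 GeTMM). LEF1, a transcription factor of early lymphocytes, had medians of 7.26 GeTMM in SF and 1.1 GeTMM in ISF at 10 days (-2.43, SE 0.53, FDR 0.000524). IKZF3, a zinc finger factor of lymphocytes, had medians of 3.40 and 0.552 GeTMM at 10 days (-1.60, SE 0.34, FDR 0.000336). IKZF1 (Ikaros), a related factor, had medians of 20.6 and 5.52 GeTMM at 10 days (-1.54, SE 0.33, FDR 0.000366). LEF1, IKZF1 and IKZF3 are also used by T cells, whose 5 markers were lower in ISF at the same time.

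Genes of the secretory machinery are used heavily by plasma cells, and by other cells too. Of 10 tested, 2 were higher (CRELD2 and HSP90B1) and 1 lower (SSR4, -0.54, FDR 0.0113) in ISF at 6 days, and 4 were higher and 0 lower at 10 days, where the shares over all genes are those given above. CRELD2, a protein induced by stress of the endoplasmic reticulum, had 30.01, 36.2 and 48.7 GeTMM in SF and 50.2, 130 and 218 GeTMM in ISF, without overlap (1.44, SE 0.23, FDR 3.68e-06). HSP90B1, a chaperone, had medians of 381 and 1054 GeTMM (1.17, SE 0.16, FDR 1.47e-07), and SDF2L1, a partner of chaperones, 44.0 and 104.2 GeTMM (0.95, SE 0.24, FDR 0.00245). JCHAIN and MZB1 were not higher in ISF at that time.

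Of 6 tested ligands that act on B cells, 1 was higher and 1 lower in ISF at 6 days, and 1 higher and 3 lower at 10 days. Over all genes 16.7% and 13.6% were higher and lower at 6 days, and 9.95% and 10.8% at 10 days. TNFSF13B (BAFF) had medians of 16.2 GeTMM in SF and 32.0 GeTMM in ISF at 6 days (1.04, SE 0.32, FDR 0.00973). The SF library of Moon held the lowest level at that time, 3.00 GeTMM. At 10 days the medians were 22.5 and 33.7 GeTMM, where the fold change had the other sign and was not called (-0.24, SE 0.34, FDR 0.691). CXCL13, the ligand of CXCR5, had medians of 0.564 and 3.67 GeTMM at 10 days (1.27, SE 0.39, FDR 0.0129). CXCL12, which holds B cell precursors in marrow, had a median of 13.8 GeTMM before culture, 0.807 GeTMM in SF and 0 in ISF at 10 days (-1.92, SE 0.46, FDR 0.00148). CD40LG, the T cell ligand of CD40, had medians of 1.33 and 0.188 GeTMM (-1.11, SE 0.29, FDR 0.00395).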
